A study of Mus musculus with 27 samples.

Results

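The microRNA loci of bone marrow derived macrophages were examined in chromatin-associated RNA, the fraction that holds transcripts still being made. The loci are the rows of the gene table whose symbol begins with Mir and a number, or with Mirlet7, and they were selected on their measured level, since a row counted only if 3 or more of the 27 samples showed 10 normalised read counts or higher. 36 rows met this rule, of 1188 microRNA rows in a table of 45070 genes. They comprise 7 host transcripts, whose names end in hg, of 13 in the table, and 29 rows for the hairpins themselves, of 1175. Only 3.03% of microRNA rows reached this level, against 30.8% of all genes. 577 microRNA rows were listed at 0 in every sample.

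The macrophages came from the bone marrow of young adult male wild type C57/BL6 mice and were all exposed to DMSO, the solvent of the inhibitors used elsewhere in the study, for 1 h. They were then left untreated or received LPS, the bacterial endotoxin sensed by Toll-like receptor 4, at 10 ng/ml, or the cytokine IL-4 at 10 ng/ml. LPS and IL-4 each acted for 0.5, 1, 2 or 4 h, which makes 9 groups of 3 replicates. The comparisons ask which microRNA loci each stimulus turns up or down, and when. The labels do not say whether the replicates were separate cultures or animals, so p-values measure the spread between these samples, which may be technical.

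A microRNA is cut from a longer primary transcript. In the nucleus Drosha and its partner Dgcr8 release a hairpin, Exportin 5 carries it to the cytoplasm, Dicer1 trims it to the mature duplex, and an Argonaute protein loads one strand, whose seed pairs with target mRNAs. Some hairpins have a transcript of their own and many sit in introns or exons of other genes, so that their primary RNA is that gene's nascent RNA. The chromatin fraction reads these primary transcripts and says nothing about the amount of mature microRNA.

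The mature sequences below belong to the loci on which the results turn, with the seed (bases 2 to 8) in capitals. They were taken from RefSeq on GRCm38.p6, which held an entry for 27 of the 29 hairpin rows. The pair that opens the list is shown because miR-221-3p and miR-222-3p share their seed, the only seed shared by 2 among the 42 mature sequences of the hairpin rows. The others were picked from the rows the naming rule gave, because their loci or host transcripts had large changes with LPS (miR-155, miR-21a, miR-147, miR-7649, miR-6381, and miR-22 and miR-92a, which lie in host transcripts), or with IL-4 (miR-511), or were lower after both stimuli (miR-7115).
miR-221-3p: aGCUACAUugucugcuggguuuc
miR-222-3p: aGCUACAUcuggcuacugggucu
miR-155-5p: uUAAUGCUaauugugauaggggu
miR-21a-5p: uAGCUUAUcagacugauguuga
miR-147-5p: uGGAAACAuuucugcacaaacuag
miR-7649-5p: uGACAGCAgugcuguagacaug
miR-6381: cAGGAUGCuggugacaugagu
miR-22-3p: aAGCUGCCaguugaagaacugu
miR-92a-3p: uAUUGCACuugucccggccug
miR-511-3p: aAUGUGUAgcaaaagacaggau
miR-7115-5p: uCGGGGGUuguggugccgaauugu

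Of the 29 hairpin rows, 25 lay inside another gene of the table, 23 of them on that gene's strand. The other 2 lay on the opposite strand only, Mir6244 in Zc3h12c and Mir6381 in Gbp2. 4 rows lay in no other gene, Mir221, Mir222, Mir5099 and Mir6240. In the GENCODE vM21 annotation 12 hairpins were intronic, 6 crossed an exon and intron of a coding region, 2 lay in coding exons, 3 in untranslated exon sequence and 2 in exons of noncoding genes. The libraries were made by a protocol that does not mark strand, and the sources used here do not say how a read over both a hairpin and its containing gene was counted. A hairpin's reads and those of the gene around it therefore cannot be told apart, and neither can those of genes on opposite strands.

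Hairpin rows are short, spanning 56 to 137 bases, and their values were low. The highest value of a hairpin row over the 27 samples was 12 to 143 normalised read counts, with a median of 26. To set a hairpin beside its same-strand host per length, the hairpin's mean in its highest group was divided by the value expected if host reads of 76 bases were spread evenly over the host's span. This ratio ranged from 0.326 for Mir155 in Mir155hg to 11.85 for Mir3068 in Alkbh1, with a median of 2.51 over 23 rows. It lay between 0.5 and 2 for 9 rows, above 2 for 13 and under 0.5 for 1. A row was kept only if 3 samples reached 10, and the ratio used its highest group. For every row above 2 except Mir8098 the value expected from the host was under 10, so selection favoured a high ratio. The median therefore does not show that hairpins exceed their hosts.

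Which samples carried a row past the minimum decides what may be read from its change. 14 rows reached 10 only in LPS samples, 1 only in IL-4 samples (Mir511), 5 in both but in no untreated sample, and 16 in all 3 conditions. A single sample sufficed for a condition, so these 16 need not be at 10 throughout. Mir7656 was at 10 or more in 5 of 27 samples, 1 untreated, 2 after LPS and 2 after IL-4. A row that qualified only through stimulated samples had to be higher there, so for such rows values and fold changes against untreated, under a stimulus that qualified them, are given as a description with no test. Mir511 qualified through IL-4 samples alone, and its LPS change is tested. Just inside the minimum were Mir27b, whose sample of rank 3 from the top held 10, and Mir222, Mir702 and Mir5107, where it held 11. Just outside, where it held 9, were Mir1195, Mir1938, Mir6951 and Mir7657.

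Macrophage markers were high in every sample, with 6 of 6 past the minimum and a summed level of 7545 to 14573 normalised read counts. None of the 4 T cell, 3 B cell or 3 neutrophil markers passed, with sums of 0 to 14, 0 to 6 and 0 to 16, and Cd3e, Cd3g and Ly6g were at 0 in all samples. 2 of 3 dendritic cell markers passed (sum 5 to 98), and 2 of 3 fibroblast and endothelial markers (sum 15 to 180), with Pecam1 highest after IL-4 for 2 and 4 h and Zbtb46 after LPS for 1 h. The fibroblast collagen gene Col1a1 was highest in replicate 1 of every group. The part of these in the results was not tested. Totals per sample were 2469768 to 2790981 normalised read counts in untreated and IL-4 samples and 3571492 to 4058199 after LPS. Fewer cells of a type and less RNA per cell cannot be told apart in such bulk samples.

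Over the LPS course 27 of 36 rows passed the test (75%), 21 higher and 6 lower than untreated at their largest change. Each course was fitted with limma on log2(value + 1) over all 13901 genes past the minimum, with an F test over the 4 times and Benjamini-Hochberg adjustment at 0.05. Of all genes tested 87.6% passed, 32.9% higher and 54.7% lower. All 14 rows that reached 10 only in LPS samples were among the 21 higher, which the rule fixed. Mir17hg, Mir3068 and Mir7227, also higher, reached 10 only in LPS and IL-4 samples, so their rises are description too. Of the 16 rows with at least 1 sample at 10 in each condition 9 passed, 4 higher and 5 lower. Their median log2 fold changes were 0.31, 0.27, 0.33 and 0.26 at the 4 times in order, against -0.25, -0.31, -0.29 and -0.26 over all genes. If every library was instead scaled to the same total, 25 rows passed, 16 higher and 9 lower, and this scaling moved the median of all genes to between -0.73 and -0.91.

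Taken time by time against untreated, 13, 17, 21 and 17 rows were higher and 3, 3, 4 and 4 lower in the 4 LPS groups in order. Among all genes 19.6%, 24.8%, 26.9% and 25.9% were higher and 34.4%, 39%, 39% and 37.6% lower. The rows that reached 10 only in LPS samples, or only in LPS and IL-4 samples, account for part of the higher counts by construction. After IL-4 4, 6, 8 and 5 rows were higher, against 8.15%, 11.1%, 14.3% and 13.4% of all genes. Mir511, which reached 10 only in IL-4 samples, was among these higher rows at each time, a direction that its selection fixed. Mir27b (at 1 and 2 h) and Mir17hg (at 2 h) were also among them. They reached 10 only in stimulated samples, IL-4 samples among them, so selection favoured their rises too. 1 row, Mir7115 at 4 h, was lower, where 8.14%, 9.83%, 13.2% and 12.5% of all genes were lower.

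Changes between neighbouring times were also tested, a comparison chosen after the values had been seen. From 0.5 to 1 h of LPS 6 rows rose and 2 fell, against 25.1% and 24.6% of all genes. From 1 to 2 h 8 rose and 6 fell (21.5% and 21.8% of all genes), and from 2 to 4 h 3 rose and 2 fell (11.4% and 11.5%). Of the rows that rose from 1 to 2 h, all but Mir8098 reached 10 only in LPS samples. So did Mir147 and Mir7649, which rose from 2 to 4 h with Mir99ahg. Of those that rose at the first step, Mir155hg, Mir6244, Mir17hg and Mir7227 reached 10 only in stimulated samples. The minimum could favour steps of such rows, so their part in these counts is description. Over the same steps of IL-4 2 rows rose at the first step, Mir99ahg and Mir133a-1hg, 1 at the next, Mir99ahg, and 1 fell at the last, Mir133a-1hg. Of all genes 4.21%, 4.03% and 2.4% rose and 3.61%, 5.37% and 3.09% fell at these steps.

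**Figure D1:**
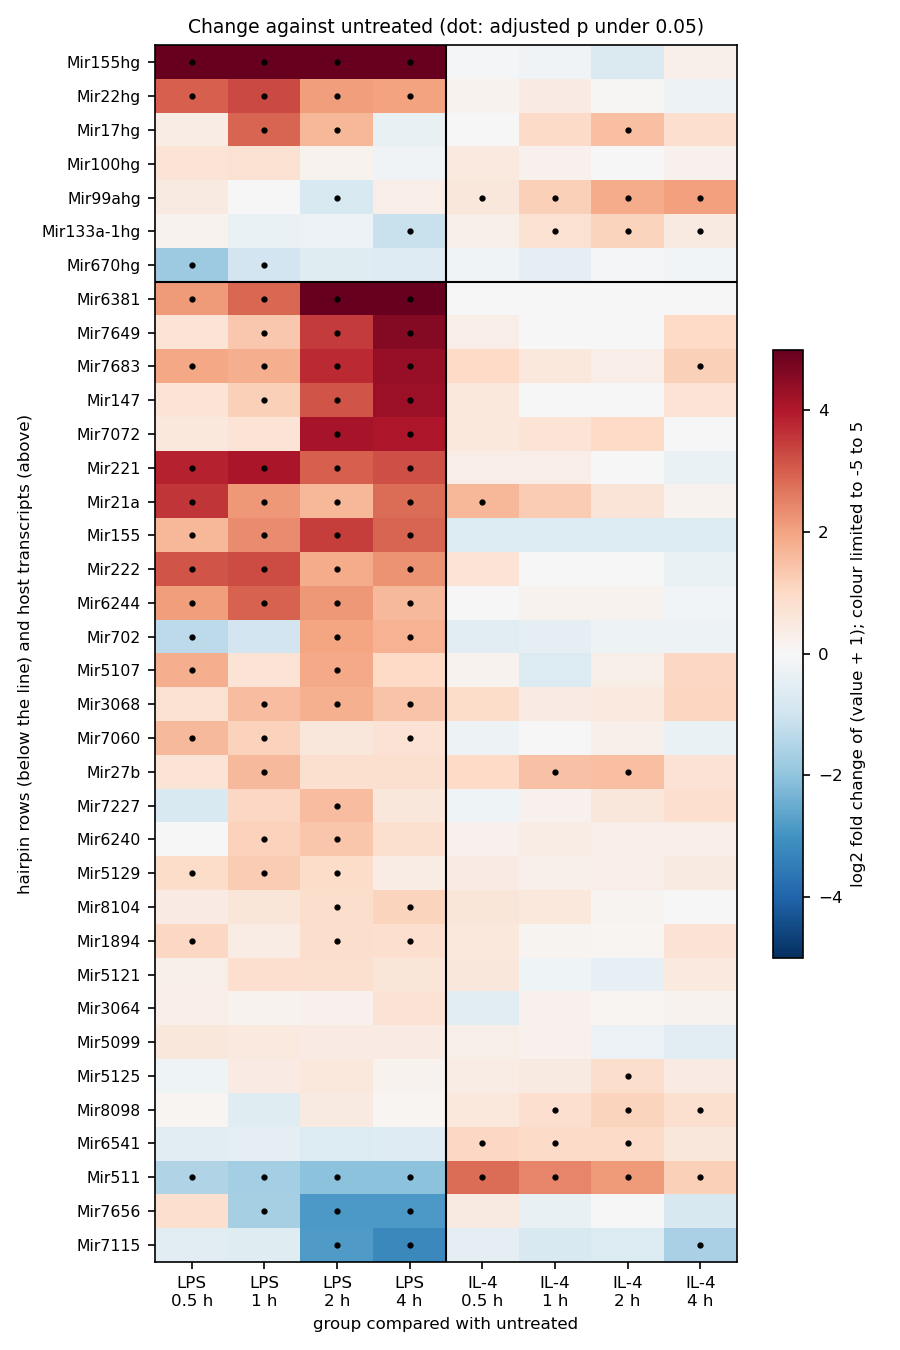
Colour gives the log2 fold change of (value + 1) against untreated for the 36 microRNA rows at each time of LPS and IL-4, with host transcripts above the horizontal line and hairpin rows below it, and dots mark an adjusted p under 0.05 at that time. Red fills most of the LPS columns, while the IL-4 columns are pale outside Mir511, Mir99ahg and a few weaker rows.

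Mir155hg, the noncoding host transcript of miR-155 (chr16:84713023-84715245 on mm10, plus strand), was the row most changed by LPS. Its normalised read counts were 1, 1 and 8 in untreated cells, and 246, 396 and 331 after LPS for 0.5 h. They reached 572, 812 and 898 at 1 h and held at 634, 907 and 941 (2 h) and 635, 766 and 947 (4 h). No LPS sample overlapped an untreated one, and the mean at 2 h, 827 ± 168 (SD, n = 3), was 248.2 times the untreated mean. Most of the difference was in place by 1 h. The step from 0.5 to 1 h had a log2 change of 1.23 ± 0.43 (SE, limma adjusted p = 0.0268), and neither later step passed.  After IL-4 Mir155hg stayed at 0 to 4 in all 12 samples.

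The hairpin row Mir155, in an exon of that transcript, was listed at 0, 1 and 1 in untreated samples. After LPS it read 7, 3 and 3 at 0.5 h, 6, 9 and 7 at 1 h, then 11, 20 and 20 at 2 h and finally 10, 10 and 13 at 4 h. It was at 0 in every IL-4 sample. Its highest mean came at 2 h, 17.0 ± 5.2, when Mir155hg was also highest. Per kilobase, however, the hairpin row held 121 normalised read counts and the transcript around it 372, the lowest such ratio of the 23 rows. The length used for the hairpin row was 140 bases, the start positions from which a read of 76 bases touches it. For the transcript it was the plain span.

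Mir221 and Mir222 lie 504 bases apart on the minus strand of chromosome X, in no other gene of the table, and share the seed printed above. Mir221 (chrX:19146294-19146388) was listed at 0, 1 and 0 in untreated samples and read 12, 24 and 18 after LPS for 0.5 h. It read 17, 21 and 23 at 1 h, then 8, 7 and 13 at 2 h and finally 7, 11 and 16 at 4 h. Mir222 (chrX:19146893-19146971) followed with 1, 0 and 0 untreated, 11, 12 and 8 at 0.5 h, 11, 11 and 11 at 1 h, then 5, 3 and 3 at 2 h and finally 6, 4 and 5 at 4 h. For both rows every LPS sample was above every untreated sample, and the 1 h samples were above the 2 h samples. The log2 fold changes at 1 h were 4.07 ± 0.39 and 3.25 ± 0.34 (SE). In IL-4 samples both rows read 0 or 1.

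Mir21a (chr11:86584067-86584158, minus strand) sits at the far end of Vmp1, a gene of autophagosome formation, 99.7% of the way along its span in untranslated exon sequence. Its values were 1, 0 and 3 untreated and 20, 27 and 22 after LPS for 0.5 h. They were 5, 7 and 14 at 1 h, then 1, 13 and 8 at 2 h and finally 8, 19 and 14 at 4 h. The 0.5 h samples stood above all other LPS samples, and at 2 h replicate 1 fell within the untreated range. Vmp1 had its highest mean at the same time, 1941 ± 187 against 333 ± 20.8 untreated, was lowest among LPS groups at 2 h with 810 ± 128, and was 1319 ± 197 at 4 h. Per length, the Mir21a row at 0.5 h was 7.09 times the level of Vmp1. The value expected from Vmp1 was 3.24, so a row at that level would not have been kept. After IL-4 for 0.5 h Mir21a read 5, 5 and 6, above the untreated values, and Vmp1 854 ± 79.1.

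Mir147 (chr2:122640803-122640881) lies near the end of AA467197, at 91.4% of its span. It was listed at 0 in all 3 untreated samples, at 0 to 2 after LPS for 0.5 and 1 h, at 7, 8 and 9 at 2 h, and at 17, 21 and 17 at 4 h. This made it at least 6.11-fold higher at 4 h, taking 3 counts per sample as the floor for 0. AA467197, also at 0 in untreated samples, had means of 5.33, 28.3, 85.3 and 177 over the 4 times. Mir147 was the only one of the 36 rows that reached 10 in 1 group alone.

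Mir6381 and Mir7649 were the other hairpin rows of large gain after LPS with a group mean of at least 20. Mir6381 lies on the strand opposite to Gbp2, an interferon-inducible GTPase, across coding exon and intron. It read 0 in the untreated and in all IL-4 samples, then 3, 2 and 6, 3, 8 and 10, 21, 42 and 54, and 32, 55 and 60 at the 4 LPS times, at least 16.33-fold above the floor at 4 h. Gbp2 had means of 17.0 untreated and 270, 466, 2576 and 2470 after LPS. Per kilobase at 4 h the Mir6381 row held 302 normalised read counts and Gbp2 142. As for Mir155, the length of the hairpin row was widened for reads of 76 bases that only touch it, and that of Gbp2 was not. Without strand the reads of one cannot be told from those of the other.

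Mir7649 lies 0.134 kb from the start of the noncoding gene Gm15987, within Clec2g on the other strand. It was listed at 0 in untreated samples, at 9, 10 and 12 after LPS for 2 h and at 22, 23 and 24 at 4 h, at least 7.67-fold above the floor. Gm15987 averaged 12.0 in untreated samples and 225 and 699 at these times, and Clec2g 18.7, 290 and 939. Mir7649 and Mir6381 had their highest means at 4 h, and Mir221 and Mir222 at 1 h.

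Mir22hg, the host transcript of miR-22 (chr11:75461539-75466690, plus strand), rose early and stayed up. It read 36, 27 and 25 untreated, and 254, 246 and 218 after LPS for 0.5 h. It peaked with 367, 253 and 267 at 1 h, then read 214, 96 and 99 at 2 h and finally 176, 102 and 95 at 4 h. No LPS sample overlapped an untreated one. The log2 fold change at 1 h was 3.29 ± 0.29 (limma F test adjusted p = 3.39e-07), and the values fell by 1.20 ± 0.29 on the log2 scale from 1 to 2 h (adjusted p = 0.00327). Replicate 1 was the highest in 8 of 9 groups. The Mir22 hairpin row inside it did not reach the minimum, with 0 in untreated samples and 2 to 7 in LPS samples.

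Mir17hg, the host transcript of the growth-promoting miR-17-92 cluster, gave a short pulse. Its values were 6, 5 and 4 untreated, 10, 6 and 5 after LPS for 0.5 h, and 51, 46 and 35 at 1 h. They then dropped to 37, 15 and 10 at 2 h and 4, 3 and 4 at 4 h, so that only the 1 and 2 h samples stood apart from untreated. The rise from 0.5 to 1 h was 2.52 ± 0.40 on the log2 scale (SE). The values fell by 1.24 ± 0.40 to 2 h and further to 4 h (-2.02 ± 0.40). The 1 and 2 h samples were among those that took the row past the minimum, so these steps are description. The row spans chr14:115044390-115046728 and so begins within the cluster, containing the Mir92-1 hairpin and part of Mir19b-1, while Mir17, Mir18, Mir19a and Mir20a lie before its start. None of the 11 other listed rows of this cluster and its paralogues reached the minimum, with values up to 5.

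**Figure D2:**
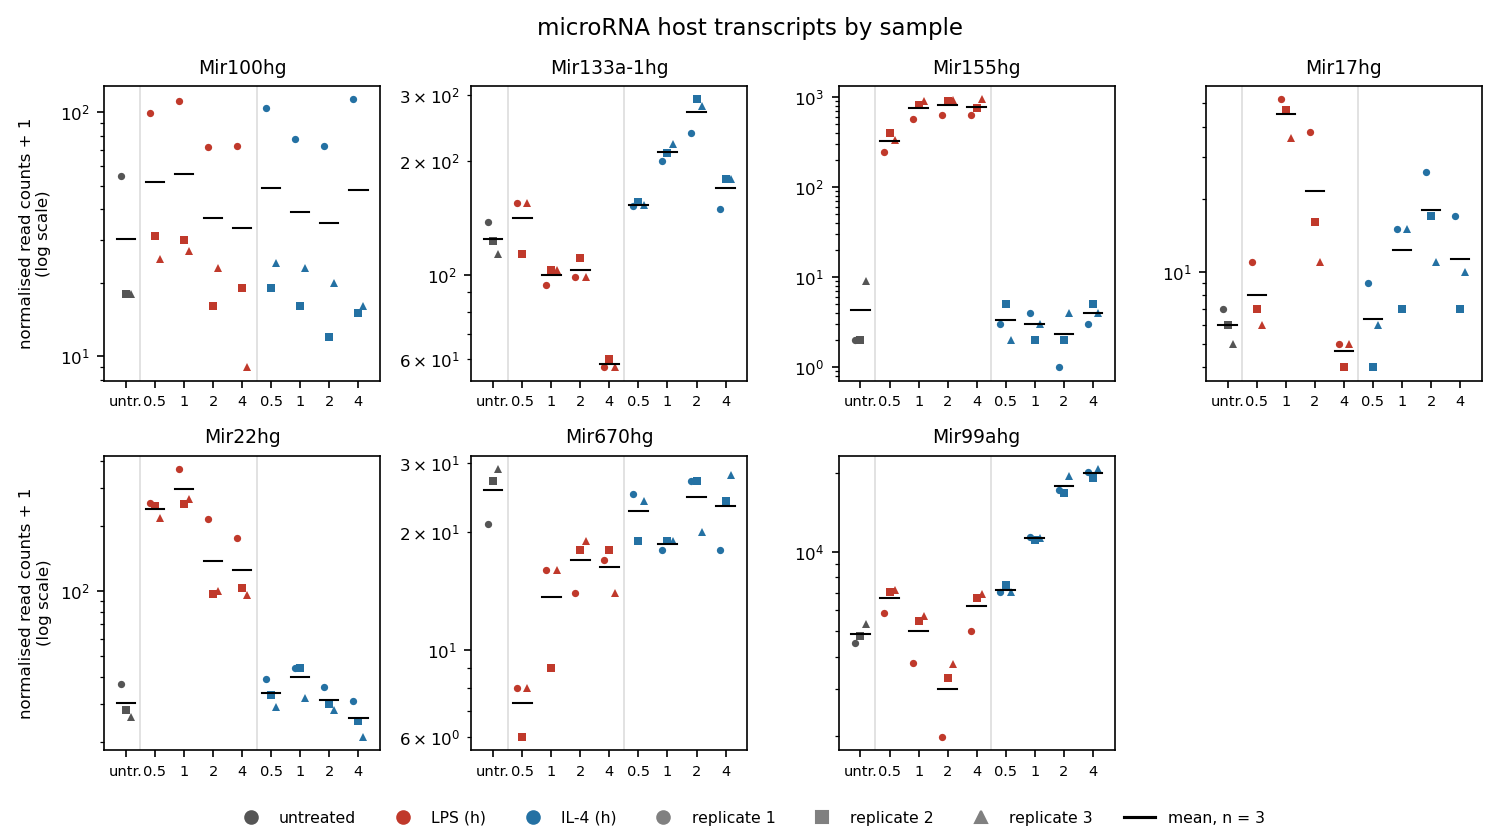
Points give the normalised read counts plus 1 (log axis) of the 7 host transcripts in each of the 27 samples, shaped by replicate and coloured by condition, with bars at the mean of 3 samples and hours of LPS or IL-4 on the x axis. Mir155hg and Mir22hg are above untreated at each LPS time, Mir17hg peaks at 1 h, Mir99ahg climbs to 19091 to 20602 after IL-4 for 4 h, and in Mir100hg replicate 1 stands above the other samples of every group.

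The 3 other changed host transcripts had their largest LPS change below untreated, Mir670hg at 0.5 h, Mir133a-1hg at 4 h and Mir99ahg at 2 h. Mir670hg, which contains the Mir670 and Mir129-2 hairpins, read 20, 26 and 28 untreated and 7, 5 and 7 after LPS for 0.5 h. It was back at 15, 8 and 15 at 1 h, then 13, 17 and 18 at 2 h and finally 16, 17 and 13 at 4 h, all below the lowest untreated sample. The fall at 0.5 h was -1.81 ± 0.29 (log2, limma F test adjusted p = 0.000467), and the step back up to 1 h was 0.86 ± 0.29 (adjusted p = 0.0211). None of its IL-4 contrasts passed. At 0.5 h the LPS samples were below the IL-4 samples by a log2 difference of -1.63 ± 0.25 (adjusted p = 5.61e-06).

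Mir133a-1hg, which holds the muscle microRNAs Mir133a-1 and Mir1a-2, moved in opposite directions under the 2 stimuli. It read 137, 122 and 113 untreated and 56, 59 and 56 after LPS for 4 h, a log2 change of -1.10 ± 0.15 (limma F test adjusted p = 8.69e-06). After IL-4 it read 151, 155 and 152 at 0.5 h, 200, 210 and 222 at 1 h, then 237, 291 and 279 at 2 h and finally 149, 179 and 179 at 4 h. The change at 2 h was 1.11 ± 0.10 (F test adjusted p = 1.41e-05), and all IL-4 samples were above all untreated ones. At 4 h LPS and IL-4 differed by -1.55 ± 0.12 (adjusted p = 6.94e-11). The transcript lies in an intron of Mib1, a ubiquitin ligase of Notch signalling, on the other strand. Mib1 had means of 607 ± 46.6 untreated, 293 ± 9.5 after LPS for 4 h and 1170 ± 116 after IL-4 for 2 h. Per kilobase the transcript held 9.47, 4.36 and 20.6 normalised read counts in these groups and Mib1 6.53, 3.16 and 12.6. The hairpin rows Mir133a-1 and Mir1a-2 read 0 to 3.

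Mir99ahg is a long noncoding transcript named for miR-99a, and its row spans 229101 bases with no microRNA row of the table inside. It had the highest values of the 36 rows. Its values were 4491, 4800 and 5330 untreated. After IL-4 they were 7051, 7446 and 7031 at 0.5 h, 11368, 11101 and 11239 at 1 h, then 17167, 16658 and 19413 at 2 h and finally 20012, 19091 and 20602 at 4 h. Every IL-4 group was above the previous one in its mean, and no IL-4 sample overlapped an untreated one. The log2 fold change was 0.56 ± 0.09 at 0.5 h and 2.03 ± 0.09 at 4 h (limma F test adjusted p = 5.29e-09). The steps from 0.5 to 1 h and from 1 to 2 h passed (0.65 and 0.66, each ± 0.09, adjusted p = 0.00055 and 0.000359), and that from 2 to 4 h did not.

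Under LPS the same transcript varied around its untreated level. It read 5848, 7033 and 7139 at 0.5 h, 3795, 5452 and 5718 at 1 h, then 1978, 3303 and 3733 at 2 h and finally 4989, 6681 and 6926 at 4 h. The 0.5 h samples were all above the untreated ones, by 0.45 ± 0.21 on the log2 scale (limma adjusted p = 0.0899). Only the 2 h samples were all below untreated, at -0.75 ± 0.21 (limma F test adjusted p = 0.000799), and the rise from 2 to 4 h was 1.08 ± 0.21 (adjusted p = 0.00186). Replicate 1 was the lowest sample in each LPS group. With median-of-ratios scaling the largest change was instead the gain at 0.5 h (0.69), beside -0.51 at 2 h. At 2 h the LPS and IL-4 groups differed by -2.61 ± 0.18 (adjusted p = 3.9e-12). The noncoding gene 9430053O09Rik lies inside Mir99ahg on the other strand. Per kilobase Mir99ahg and 9430053O09Rik held 21.3 and 20.2 normalised read counts untreated, 13.1 and 13.1 after LPS for 2 h, and 86.9 and 89.1 after IL-4 for 4 h. They held 31.3 and 24.0 after IL-4 for 0.5 h, and 49.0 and 62.7 at 1 h, with the order turned.

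Mir100hg did not pass in either course (limma adjusted p = 0.705 for LPS and 0.99 for IL-4). It read 54, 17 and 17 untreated, 110, 29 and 26 after LPS for 1 h, and 112, 14 and 15 after IL-4 for 4 h. Replicate 1 was the highest sample in 9 of 9 groups, at 3.18 to 7.72 times the mean of the other samples. Col1a1 showed the same order, with 35, 27 and 15 untreated, 80, 8 and 12 after LPS for 1 h and 66, 17 and 12 after IL-4 for 4 h, and its part in the result was not tested. Without replicate 1 the log2 fold change after LPS for 1 h was 0.66 and the LPS course passed (F test adjusted p = 0.0404). The hairpins inside it, Mir100, Mir125b-1 and Mirlet7a-2, read 0 or 1.

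Over the IL-4 course 8 of 36 rows passed (22.2%), 7 higher and 1 lower, against 40.3% of all genes, 19.4% higher and 20.9% lower. Of the 7 higher, Mir511, Mir27b and Mir17hg reached 10 only in stimulated samples, IL-4 samples among them, so their rises are description. Of the 16 rows with at least 1 sample at 10 in each condition 4 passed, 3 higher and 1 lower. Besides Mir99ahg and Mir133a-1hg, the rows named here are Mir511, Mir8098, Mir7115, Mir27b, Mir17hg and Mir21a.

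Mir511 (chr2:14261003-14261081) is intronic in Mrc1, the macrophage mannose receptor, a marker of alternative activation. It read 4, 3 and 6 untreated, and 36, 32 and 38 after IL-4 for 0.5 h. It then read 27, 24 and 31 at 1 h, then 15, 24 and 29 at 2 h and finally 7, 12 and 15 at 4 h. All 12 IL-4 samples were above the untreated ones, and the highest values came at the earliest time. Mrc1 had means of 1878 ± 448 untreated, 12661 ± 899 at 0.5 h and 15654 ± 1002 at 1 h, then 12320 ± 1265 (2 h) and 7659 ± 544 (4 h). Both rows were lowest of the IL-4 groups at 4 h, while Mrc1 was highest at 1 h. The hairpin lies 31.6 kb from the start of Mrc1, 30.8% of the way along it.

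LPS moved Mir511 the other way. It read 0, 1 and 2 at 0.5 h, 1, 0 and 1 at 1 h, then 1, 0 and 0 at 2 h and finally 0, 0 and 1 at 4 h, all below untreated, with a log2 change of -2.04 ± 0.50 at 2 h (limma F test adjusted p = 0.00644). The test missed the threshold without replicate 2 (-2.06, adjusted p = 0.0698) and without replicate 3 (-1.66, adjusted p = 0.0575). Mrc1 was 2291 ± 293 at 0.5 h and 473, 360 and 102 at the later times. At 0.5 h, therefore, the hairpin row was below its untreated samples while the Mrc1 samples overlapped theirs.

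**Figure D3:**
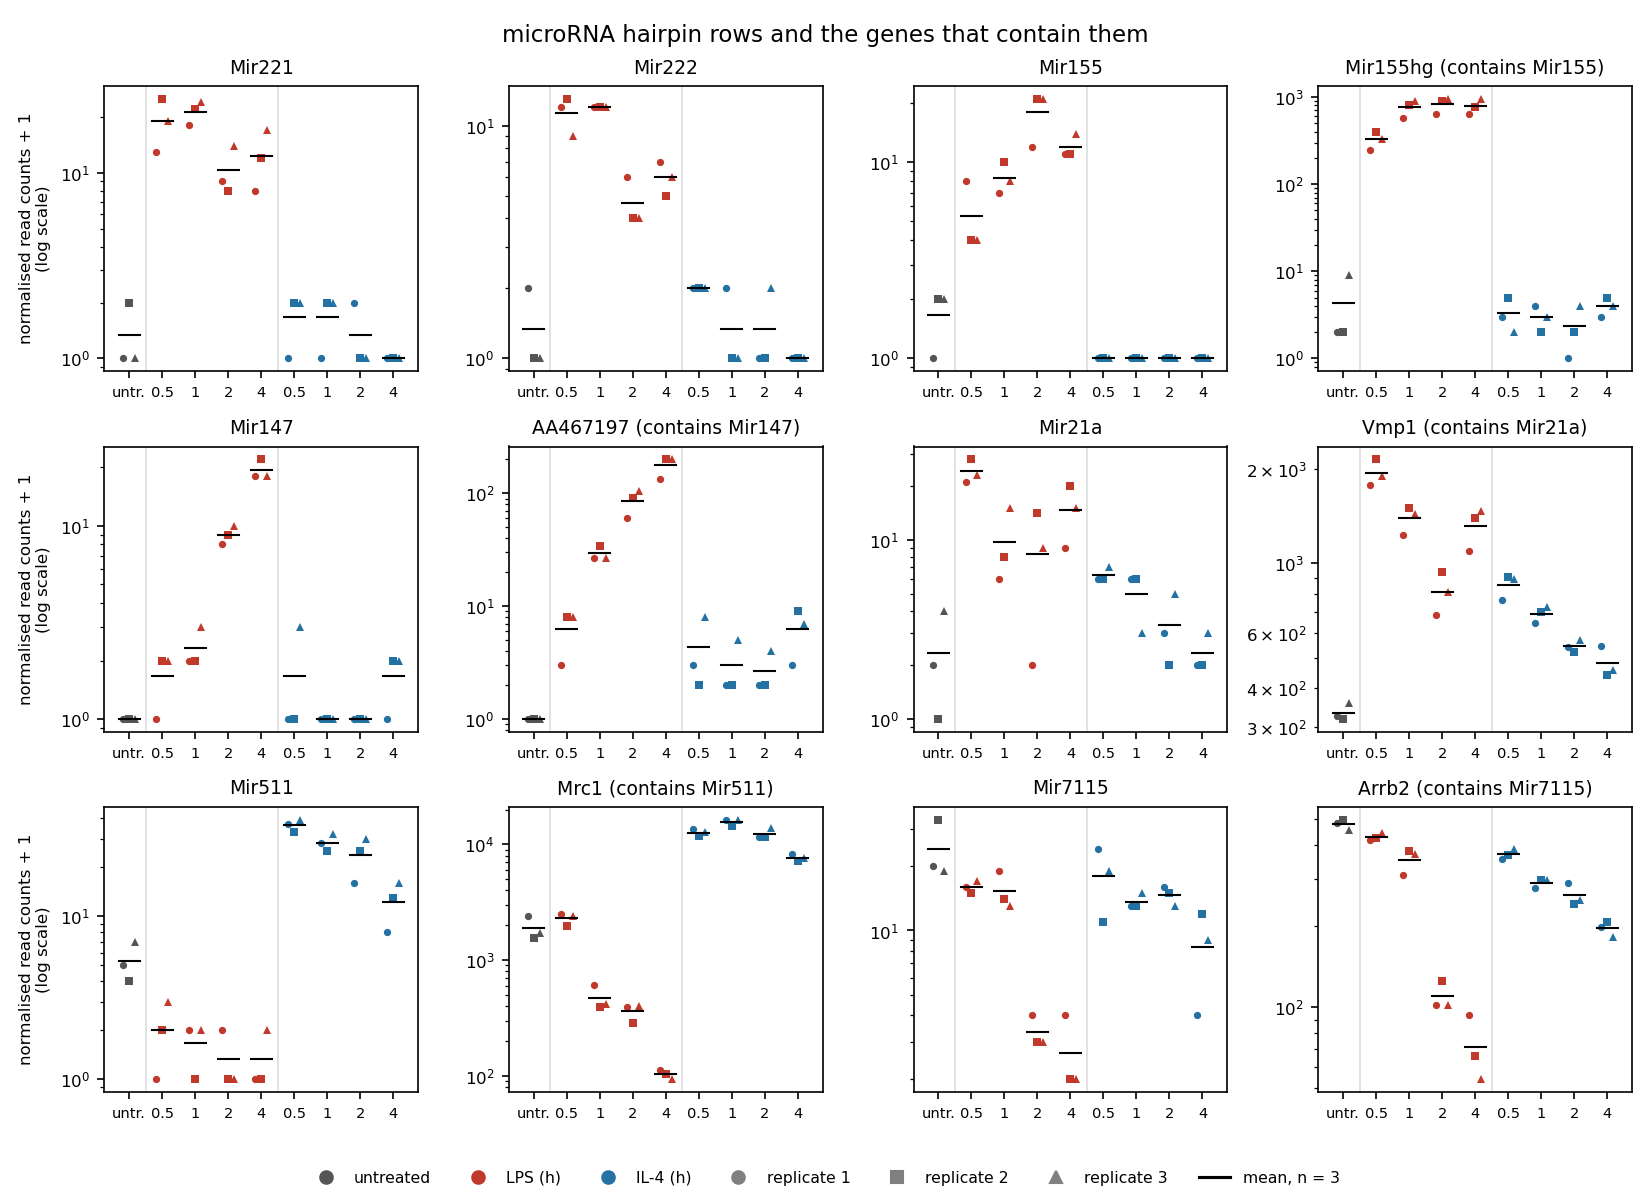
Points give the normalised read counts plus 1 (log axis) in each of the 27 samples for 7 hairpin rows and the 5 genes that contain some of them, with bars at the mean of 3 samples. Mir511 and Mrc1 are high after IL-4 and low after LPS, Mir147 and AA467197 climb to 4 h of LPS, and Mir7115 and Arrb2 fall under both stimuli.

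Mir8098 and Mir6541 lie in the same gene, Wdfy2, which encodes an endosomal protein, 0.031 and 27.9 kb from its start. Mir8098, in untranslated exon sequence, read 10, 15 and 14 untreated and 18, 19 and 19, then 22, 23 and 26, 26, 33 and 29, and 15, 24 and 33 at the 4 IL-4 times. The change at 2 h was 1.13 ± 0.24 (log2, limma F test adjusted p = 0.0176), but the test missed the threshold without replicate 2 (1.15, adjusted p = 0.238) and without replicate 3 (1.19, adjusted p = 0.164). Wdfy2 had means of 2483 untreated and 5877, 5769, 6578 and 6011 after IL-4. The shorter noncoding gene Gm26536, which contains Mir8098 on the other strand, read 43, 50 and 47 untreated and 119, 110 and 126 after IL-4 for 2 h. Mir6541 did not pass the IL-4 F test (adjusted p = 0.061), with means of 12.3 untreated and 25.7 at 0.5 h, but was lower after LPS than after IL-4 at each time, by -1.23 to -1.64 (adjusted p = 0.00276 to 0.02). It was named after its values had been seen, because it shares its host with Mir8098.

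Mir7115 is intronic in Arrb2, beta-arrestin 2, and was lower after both stimuli. It read 19, 32 and 18 untreated, 15, 14 and 16 after LPS for 0.5 h and 18, 13 and 12 at 1 h. It then read 3, 2 and 2 at 2 h and 3, 1 and 1 at 4 h, a log2 change of -3.20 ± 0.34 (limma F test adjusted p = 5.12e-07). The fall came between 1 and 2 h (-2.20 ± 0.34, adjusted p = 7.61e-05). Arrb2 had means of 476, 427, 352, 109 and 70.3 over untreated and the 4 LPS times. After IL-4 for 4 h Mir7115 read 3, 11 and 8, a change of -1.62 ± 0.38 (F test adjusted p = 0.0348), and Arrb2 had a mean of 195. That call was lost without replicate 1 (-1.27, adjusted p = 0.0985), without replicate 2 (-1.70, adjusted p = 0.0634) and without replicate 3 (-1.89, adjusted p = 0.251).

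Mir27b, Mir17hg and Mir3068 reached 10 only in stimulated samples, so their levels are given without a test against untreated. Mir27b, intronic in Aopep, read 3, 1 and 4 untreated, 12, 10 and 7 after LPS for 1 h and 9, 7 and 10 after IL-4 for 2 h. Aopep had means of 2819, 7565 and 3958 in these groups. Mir17hg read 25, 16 and 10 after IL-4 for 2 h, above all its untreated samples. LPS exceeded IL-4 for Mir17hg at 1 h by 1.93 ± 0.44 (log2, limma adjusted p = 0.000456), and IL-4 exceeded LPS at 4 h, by -1.19 ± 0.44 for LPS minus IL-4 (adjusted p = 0.0191). Mir3068, intronic in Alkbh1, read 7, 3 and 6 untreated and 14, 16 and 33 after LPS for 2 h, with Alkbh1 at 88.0 ± 17.3 and 181 ± 28.7.

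Compared directly at the same time, LPS and IL-4 differed for 13, 21, 25 and 23 of the 36 rows at the 4 times in order, against 53.8%, 64.5%, 68.6% and 68% of all genes. 10, 15, 18 and 15 were higher after LPS and 3, 6, 7 and 8 after IL-4. Of those higher after LPS, 9, 10, 12 and 13 were rows that reached 10 only in LPS samples, a direction that their selection fixed. Those higher after IL-4 included Mir511 at each time, which reached 10 only in IL-4 samples, so its direction was likewise fixed. Of all genes 18%, 24%, 26.4% and 26.1% were higher after LPS and 35.8%, 40.5%, 42.3% and 41.9% after IL-4. Of the 16 rows with at least 1 sample at 10 in each condition, 3, 8, 10 and 7 differed. At 2 h, 4 of these 10 were higher after LPS and 6 after IL-4. Mir22hg was higher after LPS at each time, by 2.04 to 2.89 on the log2 scale (limma adjusted p = 1.51e-09 to 3.4e-07). At 0.5 h the differences for Mir99ahg (-0.11 ± 0.18, adjusted p = 0.633) and Mir133a-1hg (-0.14 ± 0.12, adjusted p = 0.374) did not pass, and from 1 h on both were lower after LPS.

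Hairpin rows and the genes around them were mostly on the same side of untreated. At the time of its largest change, the mean log2 change of the containing gene had the hairpin's sign for 16 of 16 same-strand hairpin rows that passed under LPS and 5 of 5 under IL-4. Among those that did not pass it was 6 of 7 and 17 of 18, with Mir6541 and Mir7072 as the exceptions. These counts carry no test, since hairpin and gene overlap and how reads over both were counted is not given in the sources used here. Selection also favoured the hairpin's sign. Of the LPS rows that passed, Mir147, Mir155, Mir21a, Mir5107, Mir702, Mir7060, Mir7072, Mir7649 and Mir7683 reached 10 only in LPS samples. Mir3068 and Mir7227 did so only in stimulated samples. Of the IL-4 rows that passed, Mir511 and Mir27b reached 10 only in stimulated samples.

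**Figure D4:**
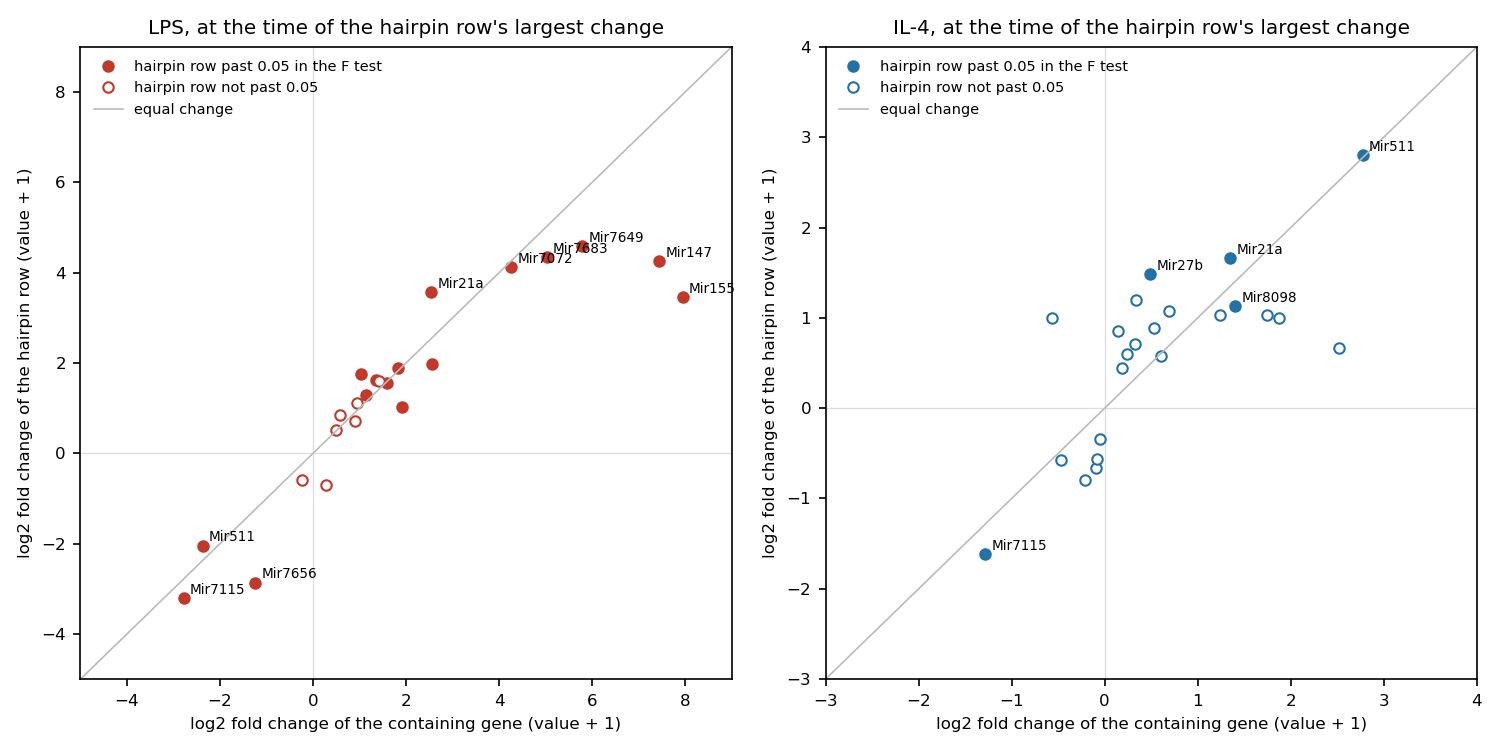
Each point is one of 23 hairpin rows, with the log2 fold change of its same-strand containing gene on the x axis and its own on the y axis, at the time of its largest change after LPS (left) or IL-4 (right). Filled points passed the F test, named where the change was negative or above 2.5 after LPS, and lie in the quadrants of equal sign. Mir155 and Mir147 lie below the line of equal change.

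Mir7656 and its host differed in timing, and were chosen for description after the values had been seen. Mir7656 is intronic in Slc9a9, a sodium/proton exchanger gene of 560561 bases, 81.9 kb from its start, or 14.6% of its span. It read 7, 7 and 11 untreated, 22, 9 and 18 after LPS for 0.5 h, 5, 1 and 1 at 1 h, then 0, 1 and 0 at 2 h and finally 1, 0 and 0 at 4 h. Slc9a9 had means of 11669 ± 2233 untreated and 16211, 11639, 4927 and 188 at these times. At 1 h the hairpin row was below all its untreated samples (-1.67 ± 0.50, limma adjusted p = 0.00921), while the Slc9a9 samples overlapped theirs. By 4 h Slc9a9 too was below untreated, at 243, 148 and 174.

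The other 15 hairpin rows were outside the naming rule, and are named here after their values were seen. Mir6244, opposite to Zc3h12c in coding exon, read 1 in each untreated sample and 16, 15 and 13 after LPS for 1 h, with Zc3h12c averaging 187 and 6174. Mir7072, in an intron of Nlrc5, an activator of MHC class I genes, was listed at 0 untreated and at 9, 20 and 24 after LPS for 2 h. Nlrc5 read 327, 334 and 380 and then 5899, 7363 and 6755 in these groups. The shorter noncoding gene Gm51584 contains Mir7072 on the other strand, with means of 46.7 untreated and 964 after LPS for 2 h. Mir7683, intronic in Slamf7, was listed at 0 untreated and at 21, 18 and 19 after LPS for 4 h, beside 94, 70 and 96 and then 2959, 2748 and 2779 for Slamf7. Mir702, which covers a short intron of Plod3, read 4, 2 and 1 untreated, 0, 0 and 1 after LPS for 0.5 h and 14, 9 and 11 at 2 h. Its largest log2 change was 1.97 at 2 h, but -1.55 at 0.5 h with equal totals and -1.95 at 0.5 h without replicate 3.

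Mir5107 in Cd74 and Mir7060 in Fbrs had untreated values of 1 to 6 and reached 19 in at least 1 LPS sample. Mir7227 in Arid1a and Mir8104 in Ppm1h reached 10 only in stimulated samples, and Mir7227 read 31, 7 and 4 after LPS for 1 h, where replicate 1 stood far above the others. Among rows with at least 1 sample at 10 in each condition, Mir5129 in Zeb2 rose to 19, 38 and 32 after LPS for 1 h from 8, 10 and 17 (1.28 ± 0.33, limma F test adjusted p = 0.0133). Mir1894 in Ppp1r10 rose to 21, 18 and 22 at 0.5 h from 6, 10 and 14 (1.02 ± 0.31, adjusted p = 0.0307). Mir6240, in no other gene, read 29, 49 and 39 untreated and 136, 111 and 71 after LPS for 2 h (1.40 ± 0.41, adjusted p = 0.011). With equal library totals all 3 calls were lost. Mir5129 missed the threshold without replicate 2 (1.01, adjusted p = 0.282) and without replicate 3 (1.49, adjusted p = 0.0505), and Mir6240 without replicate 2 (1.52, adjusted p = 0.161). Mir1894 missed it without any one of the replicates (0.70 to 1.22, adjusted p = 0.0915 to 0.158). With replicates 2 and 3 averaged Mir5129 (1.23, adjusted p = 0.108) and Mir1894 (1.17, adjusted p = 0.0954) missed it too. With no filter Mir6240 did (1.40, adjusted p = 0.0652). Mir3064, Mir5099, Mir5121 and Mir5125 did not pass in either course (adjusted p = 0.135 to 0.732).

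Of the 22 loci listed as responsive to Toll-like receptor ligands, 7 were among the 36 rows, and the rest had values up to 5. Mir146, a feedback regulator of this pathway, read 0 in untreated samples and 0 to 4 in LPS samples. Mir132 and Mir212 were at 0 in all samples. Of 16 haematopoietic or myeloid loci 15 were matched in the table (Mir142hg was not), and 1 reached the minimum, Mir22hg. Mir223 and Mir142, abundant as mature microRNAs in myeloid cells, read at most 2 and 4, and Mir24-2 at most 9. Of 6 loci tied to alternative activation or lipid handling only Mir511 reached it, and Mir378a, Mir34a and Mir342 read at most 5, 6 and 4. Rows below the minimum were not tested.

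Of 30 listed genes that make, load or turn over microRNAs, 28 reached the minimum, all but Lin28a and Lin28b, and 25 passed over the LPS course, 9 higher and 16 lower, against 32.9% and 54.7% of all genes. Drosha fell from 243, 258 and 248 untreated to 18, 23 and 20 after LPS for 1 h, and was back at 225, 203 and 184 at 4 h. The log2 change at 1 h was -3.56 ± 0.16 (limma F test adjusted p = 4.92e-11), and the 1 h samples were far below those of every other group. Dgcr8 fell to 35, 73 and 111 at 0.5 h from 162, 189 and 217 (-1.50 ± 0.32, adjusted p = 0.00244), and Dicer1 to 76, 51 and 82 from 219, 186 and 199 (-1.54 ± 0.16, adjusted p = 7.04e-07).

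The Argonaute genes went different ways. Ago2, the Argonaute that cleaves targets, rose from a mean of 302 ± 4 to 531 ± 89.9 at 1 h (0.80 ± 0.15, limma F test adjusted p = 0.00019). Ago3, named after its values had been seen, rose from 630 ± 47.1 to 3258 ± 538 at 1 h (2.36 ± 0.16, adjusted p = 3.22e-08), while Ago4 fell from 253 ± 8.19 to 21.7 ± 12 at 2 h (-3.64 ± 0.35, adjusted p = 4.39e-07). Tnrc6b, a scaffold of the silencing complex, fell most, from 1272 ± 53.1 to 71.0 ± 18.2 at 2 h (-4.18 ± 0.16, adjusted p = 1.82e-12). Adar, an RNA editing enzyme that can act on hairpins, rose from 304 ± 27.4 to 2199 ± 77.8 at 4 h (2.85 ± 0.12, adjusted p = 3.58e-12).

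Over the IL-4 course 15 of the 28 biogenesis genes passed, 7 higher and 8 lower, against 40.3% of all genes, 19.4% higher and 20.9% lower. The largest changes were in Zc3h12a, the RNase Regnase-1, from 63.3 ± 13.4 to 266 ± 20.7 at 0.5 h (2.07 ± 0.16, limma F test adjusted p = 9.55e-07), and Tarbp2, a Dicer1 partner, from 32.3 ± 6.66 to 111 ± 16.3 at 2 h (1.76 ± 0.24, adjusted p = 0.000162). Tut4, which adds uridines to hairpins, fell by 0.95 ± 0.12 on the log2 scale at 1 h (adjusted p = 0.000205), and Xpo5, Exportin 5, rose by 0.80 ± 0.14 at 2 h (adjusted p = 0.000486). Dicer1 rose by 0.37 ± 0.08 at 2 h (adjusted p = 0.0015). Drosha, Dgcr8 and Ago2 did not pass (adjusted p = 0.15, 0.478 and 0.499). The IL-4 count fell to 5 without replicate 2 and to 5 without replicate 3.

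**Figure D5:**
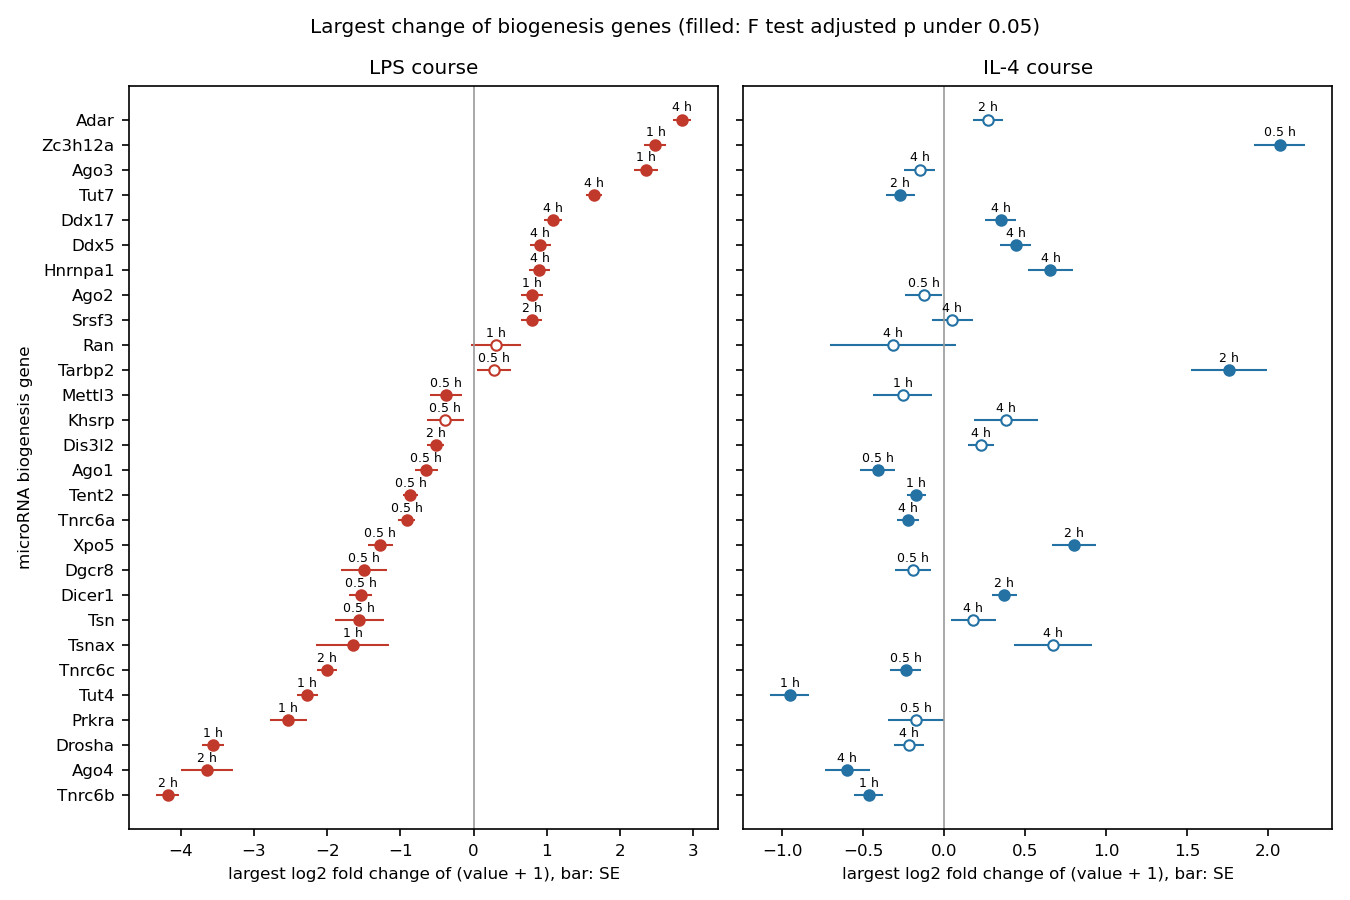
Points give the largest log2 fold change of (value + 1) over the LPS (left) and IL-4 (right) course for 28 microRNA biogenesis genes, with bars of 1 SE, the hour beside each point, filled where the F test passed. Tnrc6b, Ago4 and Drosha are lowest and Adar, Zc3h12a and Ago3 highest after LPS, and Zc3h12a and Tarbp2 stand apart after IL-4 (the x axes differ in scale).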

How the data were processed

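Chromatin-associated RNA of 27 samples was sequenced as single-end reads of 76 bases. Per the labels and the study's methods, the authors aligned reads with TopHat2 2.1.1 to mm10, removed multi-mapping and blacklisted reads (bedtools 2.29.2), counted them per gene and scaled libraries on invariant genes. The deposited values are whole-number normalised read counts, treated here as a score because they are no longer raw reads, so the depth of each sample is unknown and no counting interval is given. Since values were rounded after scaling, whole reads could not be recovered.

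Rows with at least 10 in at least 3 samples were kept. log2(value + 1) was fitted with limma 3.58.1 in R 4.3.3 (empirical Bayes with trend), per course and, for LPS against IL-4, over all samples in 1 fit. Folds on this scale understate changes of low rows. The study's own impulse model was not run, as it needs raw counts. Scripts were tested on simulated data. The members and gene lists were chosen with earlier results of these data known. Named were host transcripts, members of the locus lists, and per stimulus up to 8 rises and 8 falls passing the test with a group mean of at least 20 and no overlap with untreated, and of the biogenesis genes the 4 largest changes per stimulus with Drosha, Dgcr8, Dicer1 and Ago2. Alternatives were a pseudocount of 8, no filter, a mean of at least 50, median-of-ratios scaling, equal totals, a replicate block, replicates 2 and 3 averaged, and each replicate left out.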

Additional observations from a re-analysis of the deposited data

How the results depend on the processing

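At the time of the largest change as reported, no called fold change reversed its sign under the alternatives run. The largest change itself moved to another time and the other sign for 3 rows called under LPS: Mir99ahg with median-of-ratios scaling (from -0.75 at 2 h to 0.69 at 0.5 h), Mir7227 with equal totals (from 1.55 at 2 h to -1.16 at 0.5 h), and Mir702 with equal totals and without replicate 3 (from 1.97 at 2 h to -1.55 and -1.95 at 0.5 h). Of the 27 rows called over the LPS course 20 were called under every alternative that tested them, and of the 8 over the IL-4 course 3 were (Mir511, Mir99ahg and Mir133a-1hg). Rows that reached 10 only in stimulated samples, Mir511 among them under IL-4, were selected on those values. That their calls were kept is therefore a description and no support for a change. Requiring a mean of at least 50 left 5 and 2 rows to test in the courses, and 5 and 2 were called; the direct comparisons then gave 2, 4, 5 and 4 rows at the 4 times in order. With no filter, and with replicates 2 and 3 averaged, 4 rows were called over the IL-4 course, and averaging left 5 biogenesis genes there; the cause was not tested. Leaving out 1 replicate gave 21 to 27 rows for LPS, 4 to 7 for IL-4 (4 without replicate 2 and 4 without replicate 3, where the share of all genes called went from 40.3% to 16.1% and 15.6%), 11 to 15, 15 to 19, 18 to 22 and 18 to 23 for the direct comparisons, and 5 to 17 biogenesis genes for IL-4. Same-numbered replicates deviated together with correlations of 0.0897 to 0.713, and in 160 of 216 comparisons a sample correlated best with its own number, a hint from the data and not the design, so the numbers were not taken to pair the samples. With the replicate number as a block 31 rows were called for LPS and 13 for IL-4, against 27 and 8, and 92.4% and 53.3% of all genes, against 87.6% and 40.3%. Values under about 10 are whole numbers of few reads, which limits what short rows can show.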
